A study of Mus musculus with 10 samples.

Results

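A set of 10 heat shock protein and chaperone genes was read in the periotic tissue of mouse embryos: Hspa1a, Hspa1b, Hspb1, Hsph1, Dnajb1, Hsp90aa1, Hspa8, Hspd1, Hspa5 and Hsp90b1. They were chosen by symbol, as the probe sets that the platform annotation gives to 1 of these genes, and a gene with several probe sets was read from the one with the highest mean. That gave a probe set to 9 of the 10 genes, out of 19938 genes measured. Hspa1b shares its only listed probe set with Hspa1a and is described with it. For the comparison of classes, Hspa1a, Hspa1b, Hspb1, Hsph1, Dnajb1 and Hsp90aa1 were taken as the 6 stress-inducible genes, and Hspa8, Hspd1, Hspa5 and Hsp90b1 as the 4 constitutive genes.

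Chaperones hold unfolded proteins and help them to fold. Hsp70 proteins bind short hydrophobic stretches under the control of J-domain partners and nucleotide exchange factors, and Hsp90 proteins act later on signalling proteins such as kinases and steroid receptors. In the heat shock response, HSF1 binds heat shock elements in promoters and raises the inducible genes within minutes to hours of heat or other protein damage, whereas the constitutive genes serve growing cells at all times. Hspa5 and Hsp90b1 are the Hsp70 and Hsp90 of the endoplasmic reticulum and follow its own unfolded protein response.

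The arrays were Affymetrix Mouse Gene ST 1.0, with 1 embryo of embryonic day 12.5 on each. The 5 mutants were conditional Tbx1 knockouts and the 5 controls conditional Tbx1 heterozygotes, so both carried T-Cre and the controls were themselves heterozygous for Tbx1. T-Cre is a recombinase that acts in the early mesoderm, and Tbx1 encodes a T-box transcription factor whose mesodermal role in the ear the study addresses. The tissue was the otic vesicle with its surrounding mesenchyme, dissected in cold buffer, with both sides of an embryo pooled. The otic epithelium does not come from the mesoderm. Titles number the replicates 1 to 5 in each genotype, and the labels call them biological replicates. A second comparison set the 6 arrays titled 1 to 3 against the 4 titled 4 and 5. That boundary was drawn with the immediate early genes of these same arrays known, and the labels leave unstated what same-numbered embryos have in common.

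Promoter sequences show which members carry the classical response elements directly before their start. RefSeq windows of GRCm38.p6, from 250 bases before to 50 bases after each gene's start, were held for 8 of the 10 genes. The heat shock element was searched as the pairs GAANNTTC and TTCNNGAA, which overlap in longer arrays and read the same on both strands. The endoplasmic reticulum stress element was searched on both strands as CCAAT and CCACG with 9 bases of any kind between them. The lines below give the 250 bases before the start, and for Hspe1, the partner gene of Hspd1, a stretch of 30 bases. Capitals mark the matches: heat shock pairs in Hspa1a, Hspb1 and Hspe1, and stress elements in Hspa5 and Hsp90b1.
Hspa1a, minus strand, chr17:34972157-34972406: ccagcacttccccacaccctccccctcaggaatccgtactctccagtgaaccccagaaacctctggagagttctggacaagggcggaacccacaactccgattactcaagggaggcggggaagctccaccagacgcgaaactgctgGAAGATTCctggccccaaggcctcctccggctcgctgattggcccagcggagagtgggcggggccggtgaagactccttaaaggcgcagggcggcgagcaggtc
Hspb1, plus strand, chr5:135887669-135887918: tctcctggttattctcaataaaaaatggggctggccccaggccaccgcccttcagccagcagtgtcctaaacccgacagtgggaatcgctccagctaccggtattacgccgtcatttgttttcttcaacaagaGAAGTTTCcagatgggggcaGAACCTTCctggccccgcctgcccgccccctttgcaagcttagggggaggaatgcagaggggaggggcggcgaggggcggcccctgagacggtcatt
Hspe1, plus strand, chr1:55088053-55088082: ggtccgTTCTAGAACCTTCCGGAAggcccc
Hspa5, plus strand, chr2:34771840-34772089: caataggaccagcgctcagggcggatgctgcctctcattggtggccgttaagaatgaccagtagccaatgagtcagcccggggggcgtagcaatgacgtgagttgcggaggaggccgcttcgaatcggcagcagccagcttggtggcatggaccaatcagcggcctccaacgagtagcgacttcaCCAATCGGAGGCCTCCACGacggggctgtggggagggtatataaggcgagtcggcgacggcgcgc
Hsp90b1, minus strand, chr10:86705445-86705694: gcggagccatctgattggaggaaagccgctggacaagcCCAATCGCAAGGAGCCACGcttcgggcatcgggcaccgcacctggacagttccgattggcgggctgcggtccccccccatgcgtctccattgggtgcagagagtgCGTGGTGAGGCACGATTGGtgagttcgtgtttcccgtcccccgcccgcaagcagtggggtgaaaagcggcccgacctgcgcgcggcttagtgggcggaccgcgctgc

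The elements fell in different members. The Hspa1a window held 1 heat shock pair, starting 104 bases before the start, and the Hspb1 window held pairs at 117 and 97 bases. Hspa1b had its pair at the same distance as Hspa1a, and the 300-base windows of these tandem copies differed at 4 bases. Hspd1 and Hspe1, the mitochondrial chaperonin and its co-chaperonin, are neighbours transcribed in opposite directions, and the stretch shown lies between them, in 1 of the 2 Hspd1 windows. Hsph1 had pairs on both sides of its start, and Dnajb1 had no match in its windows. Hspa5 held a stress element at 65 bases and Hsp90b1 held 2, at 212 and 107 bases. Of 32851 windows of this length, 15.1% held either heat shock pair, 0.603% held 3 alternating heat shock units in a row, each 2 bases apart, and 0.119% held the stress element. A match is a run of letters and not a measured site.

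Between arrays the signals correlated at 0.985 to 0.993. Arrays have no read depth, and their number limits the precision. Values are log2 signals. Y-linked genes in the 7 female embryos read 3.12 to 4.36, which serves as a background, and the lowest member signal was 6.18. The measured markers of periotic mesenchyme (7 of 7) and otic epithelium (7 of 8) read above that background on all arrays. The targeted gene, Tbx1, read 7.83 ± 0.36 in mutants and 8.71 ± 0.31 in controls (SD, n = 5 each). The log2 difference of -0.88 had a limma adjusted p of 0.451 and an exact permutation p of 0.0159, and adjusted p was 0.0849 with the replicate number as a block. Whether its probes lie in the part that T-Cre removes is unknown here. Signals of different probe sets are not comparable as levels, so each gene is compared only with itself across arrays.

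By title number, 8 of the 9 measured genes read higher in the arrays titled 1 to 3, in both genotypes, and no gene passed the test. The largest log2 differences were those of Hspa1a, the inducible Hsp70 (0.42), Hspa5, the Hsp70 of the endoplasmic reticulum (0.33), Hsph1, an Hsp110 nucleotide exchange factor (0.29), and Dnajb1, the inducible J-domain partner of Hsp70 (0.21). Hspb1, the small heat shock protein Hsp27, stood at -0.04. In the limma fit with genotype as a term, 0 of the 9 passed at an adjusted p of 0.05, against 0.191% of all genes. At an unadjusted p under 0.05 there were 7 of the 9, the others being Hspb1 and Hsp90aa1, against 12.0% of all genes. All 7 were higher in titles 1 to 3, against 6.83% of all genes in that direction. The median log2 difference was 0.13 over the members and 0.03 over all genes, of which 60.8% were higher in titles 1 to 3. That share is from the fit of both genotypes together. The share of all genes higher within each genotype was not counted. The 7 became 4 without control 4 and 4 without mutant 5. Permutation p-values by title number shuffle the arrays within each genotype. With the replicate number as the unit there are 10 arrangements, so an exact p cannot go below 0.1, the value reached by Hspa1a, Dnajb1, Hspa8 and Hspa5.

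**Figure D1:**
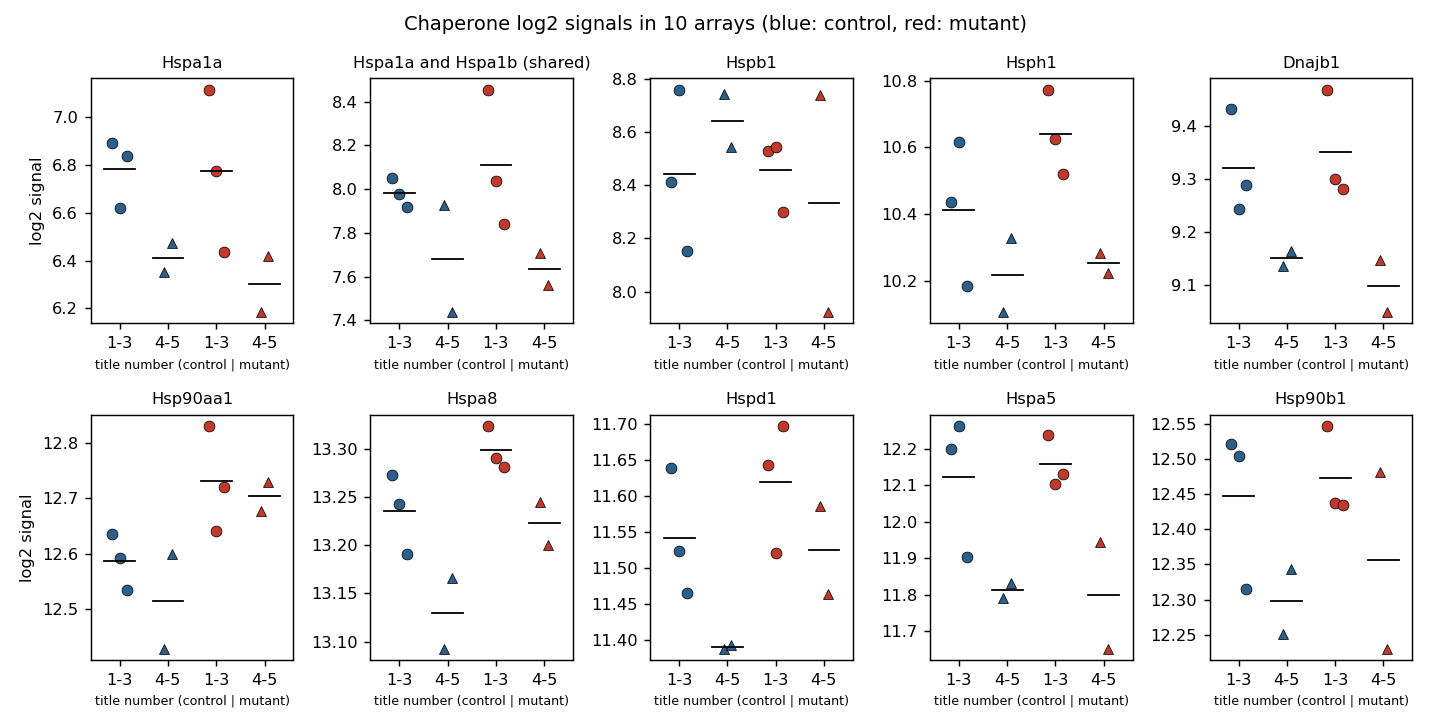
Log2 signal of each member on the 10 arrays, by genotype and title number, with 1 panel per gene and its own axis. Hspa1a reads 6.44 to 7.11 in titles 1 to 3 and 6.18 to 6.47 in titles 4 and 5, while Hspb1 shows no such order.

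Hspa1a was read from a probe set of its own (10450369) and from the one it shares with Hspa1b. In titles 1 to 3 its log2 signal was 6.89, 6.62 and 6.84 in the controls and 7.11, 6.77 and 6.44 in the mutants. In titles 4 and 5 it was 6.35 and 6.47 in the controls and 6.18 and 6.42 in the mutants. Mutant 1 was highest, and the groups overlapped only because mutant 3 lay below control 5. The log2 difference was 0.42 (95% interval 0.16 to 0.68), or 1.34-fold, with a limma adjusted p of 0.199 and an exact permutation p of 0.02. It was 0.47 within the mutants and 0.37 within the controls.

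The shared probe set (10450367) gave a similar size for Hspa1a and Hspa1b together. Its log2 signals for titles 1 to 5 were 8.05, 7.98, 7.92, 7.93 and 7.44 in the controls and 8.45, 8.04, 7.84, 7.71 and 7.56 in the mutants. Control 5 lay well below the other controls. Titles 1 to 3 exceeded the others by a log2 difference of 0.39 (95% interval 0.10 to 0.68), with a limma adjusted p of 0.430. The gene copies cannot be told apart in it.

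Hsph1 (probe set 10535904) read 10.44, 10.62 and 10.18 in controls 1 to 3 and 10.77, 10.63 and 10.52 in mutants 1 to 3. Controls 4 and 5 read 10.11 and 10.33, and mutants 4 and 5 read 10.28 and 10.22. Control 3 lay below control 5 and below mutants 4 and 5, so the title groups overlapped. The log2 difference was 0.29 (95% interval 0.10 to 0.48), or 1.22-fold, with a limma adjusted p of 0.219 and an exact permutation p of 0.05.

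Dnajb1 (probe set 10573198) was the 1 member whose title groups did not overlap, against 1.67% of all genes with titles 1 to 3 higher. Its log2 signal was 9.43, 9.24 and 9.29 in controls 1 to 3 and 9.47, 9.30 and 9.28 in mutants 1 to 3. Controls 4 and 5 read 9.14 and 9.16, and mutants 4 and 5 read 9.15 and 9.05. All 6 arrays titled 1 to 3 lay above the other 4, by a small margin. On average the log2 difference was 0.21 (95% interval 0.07 to 0.35), or 1.16-fold, with a limma adjusted p of 0.219 and an exact permutation p of 0.01, the smallest that shuffling arrays within each genotype can give.

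Hspb1 (probe set 10526410), a chaperone that binds unfolded proteins without ATP, showed no order by title, like Hsp90aa1 below. Controls 1 to 5 read 8.41, 8.76, 8.15, 8.74 and 8.54, and mutants 1 to 5 read 8.53, 8.54, 8.30, 8.74 and 7.92. Control 2 was the highest array and mutant 5 the lowest, and title groups overlapped throughout. The log2 difference by title number was -0.04 (95% interval -0.38 to 0.30), 0.13 within the mutants and -0.20 within the controls. That interval takes in the differences of Hsph1 and Dnajb1, and whether Hspb1 differs from the other inducible genes was not tested. A further Hspb1 probe set, numbered among genes of another chromosome, gave the same -0.04. It read nearly the same as the first on every array and is not taken as an independent measurement.

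The endoplasmic reticulum genes Hspa5 and Hsp90b1 read higher in titles 1 to 3 as well. Hspa5 (probe set 10471586) read 12.20, 12.26 and 11.90 in controls 1 to 3 and 12.24, 12.10 and 12.13 in mutants 1 to 3. Controls 4 and 5 read 11.79 and 11.83, and mutants 4 and 5 read 11.94 and 11.65. Control 3 was the 1 array titled 1 to 3 that lay below an array of the other titles, mutant 4. The log2 difference was 0.33 (95% interval 0.17 to 0.50), or 1.26-fold, with a limma adjusted p of 0.108 and an exact permutation p of 0.02. Hspa5 passed only without control 3, where the limma adjusted p was 0.0471. Its log2 difference was 0.36 within the mutants and 0.31 within the controls.

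Hsp90b1 (probe set 10371482) read 12.52, 12.50 and 12.31 in controls 1 to 3 and 12.25 and 12.34 in controls 4 and 5. Its mutants read 12.55, 12.44 and 12.43 in titles 1 to 3 and 12.48 and 12.23 in titles 4 and 5. Control 3 and mutants 2 and 3 lay within the range of the arrays titled 4 and 5. The titles differed by a log2 difference of 0.13 (95% interval 0.00 to 0.26), with a limma adjusted p of 0.392.

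Hspd1, the mitochondrial Hsp60, and Hspa8, the constitutive cytosolic Hsp70, read higher in titles 1 to 3 by smaller log2 differences. Hspd1 (probe set 10375240) read 11.64, 11.52, 11.46, 11.39 and 11.39 in controls 1 to 5 and 11.64, 11.52, 11.70, 11.59 and 11.46 in mutants 1 to 5. Mutant 4 lay within the range of titles 1 to 3, and mutant 5 at its lower end. The log2 difference was 0.12 (95% interval 0.01 to 0.24), with a limma adjusted p of 0.370. Hspa8 (probe set 10528021) differed by 0.09 (95% interval 0.01 to 0.17), with a limma adjusted p of 0.327 and an exact permutation p of 0.01, and its signals are given below with its other probe sets.

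**Figure D2:**
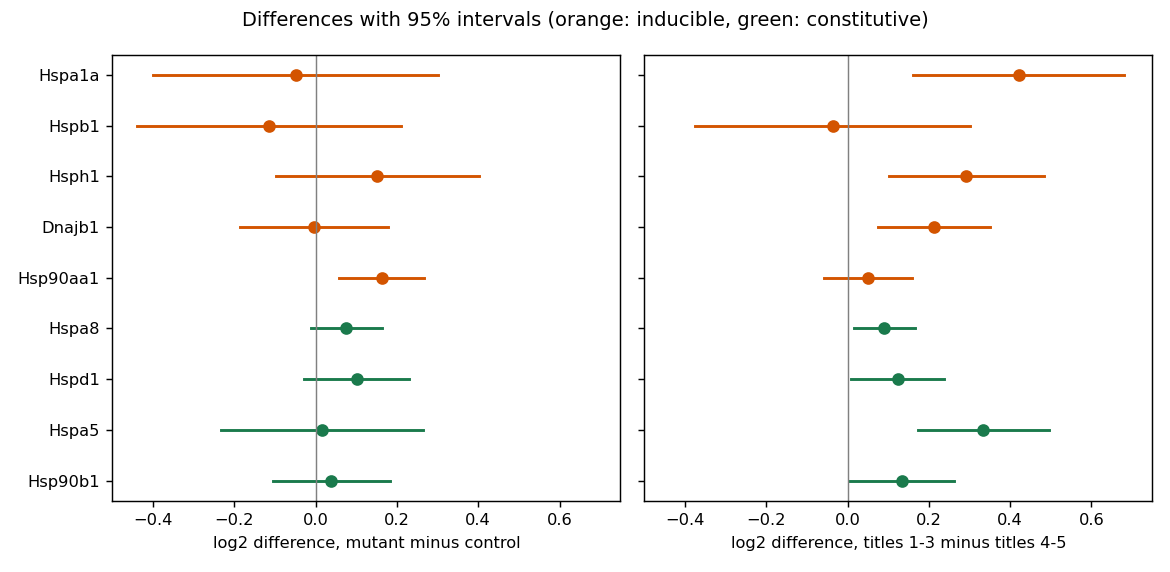
Log2 difference of each member by title number (1 to 3 minus 4 and 5, limma with genotype as a term) and by genotype (mutant minus control), with 95% intervals. By title number 8 of 9 members lie above 0, and by genotype the interval of Hsp90aa1 alone leaves out 0.

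The genes taken as inducible and as constitutive both read higher in titles 1 to 3. These classes follow the promoter matches above only in part. Heat shock pairs were found for Hspa1a, Hspa1b, Hspb1 and Hsph1, taken as inducible. None was found for Hspa5 and Hsp90b1, taken as constitutive, and no window was held for Hsp90aa1 and Hspa8. Hspd1, taken as constitutive, has a window with heat shock pairs, and Dnajb1, taken as inducible, has none in its windows. The largest difference among the constitutive genes was the 0.33 of Hspa5, whose window held a stress element. Hsp90b1, whose window held 2, differed by 0.13. The part of these elements in the differences was not tested. With each gene centred on its mean over the 10 arrays, the mean of the 5 measured inducible genes was 0.19 higher in titles 1 to 3 and that of the 4 constitutive genes 0.17 higher, a gap of 0.02. Without Hspb1 the inducible mean was 0.24 higher and the gap 0.07, and with Hsp90aa1 counted as constitutive the gap was 0.08. The inducible mean was highest in mutant 1 (0.27) and lowest in mutant 5 (-0.21), and the constitutive mean was highest in mutant 1 (0.14) and lowest in control 4 (-0.16). Control 4 and mutant 5 had the lowest means of both classes. By genotype the inducible mean was 0.03 higher in the mutants and the constitutive mean 0.06 higher, a gap of -0.03. No test is given for these means, since the classes were chosen with results of these arrays known. Mutant 1 was the highest array for 6 of the 9 genes, against 11.8% of all genes. The lowest array was control 4 for 4 genes, mutant 5 for 4 and mutant 4 for 1. Over all genes, the lowest array was control 4 for 8.96%, mutant 5 for 17.3% and mutant 4 for 12.6%.

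**Figure D3:**
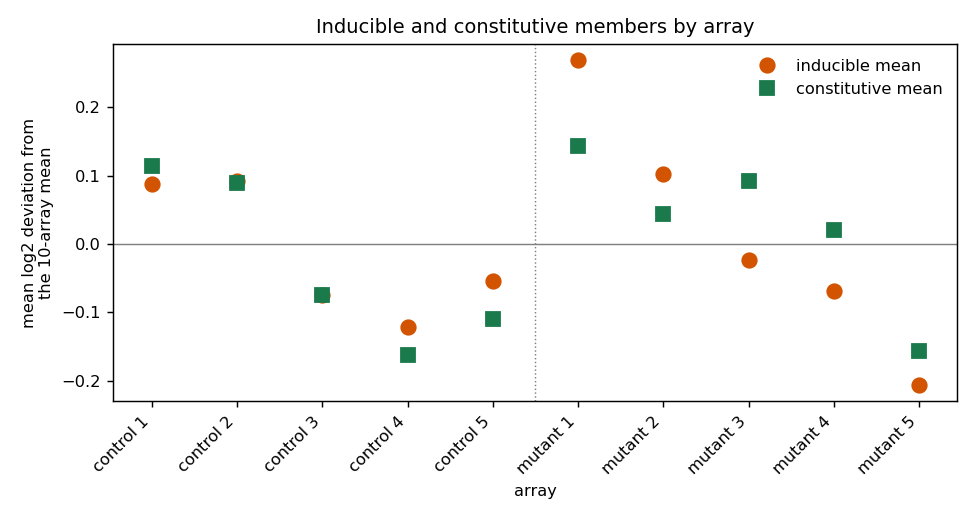
Mean of the centred log2 signals of the 5 inducible and the 4 constitutive members on each array. Both means are highest in mutant 1, at 0.27 and 0.14, and both are below 0 in control 3, control 4, control 5 and mutant 5.

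By genotype, Hsp90aa1, the inducible cytosolic Hsp90, read higher in every mutant than in every control, and the other members overlapped. In the limma fit of mutants against controls 0 of the 9 members passed at an adjusted p of 0.05, against 0.0100% of all genes. At an unadjusted p under 0.05 Hsp90aa1 was the 1 of 9, against 7.82% of all genes, and it was higher in mutants, against 4.70% of all genes in that direction. It was also the 1 whose groups did not overlap, against 1.27% of all genes with mutants higher. Without control 1 there were 3 of 9 at an unadjusted p under 0.05, and without mutant 5 there were 2. The median log2 difference was 0.04 over the members and 0.00 over all genes, and 6 of the 9 were higher in mutants, against 49.1% of all genes.

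Hsp90aa1 (probe set 10378848) read 12.63, 12.59, 12.53, 12.43 and 12.60 in controls 1 to 5 and 12.83, 12.64, 12.72, 12.68 and 12.73 in mutants 1 to 5. The lowest mutant and the highest control lay next to each other, so the groups parted by a narrow margin. The means were 12.72 ± 0.07 (SD, n = 5) in mutants and 12.56 ± 0.08 (SD, n = 5) in controls. Mutants exceeded controls by a log2 difference of 0.16 (95% interval 0.06 to 0.27), or 1.12-fold, with a limma adjusted p of 0.569 and an exact permutation p of 0.00794, the smallest that 5 against 5 can give. It was 0.14 within titles 1 to 3 and 0.19 within titles 4 and 5. By title number Hsp90aa1 differed by 0.05 (95% interval -0.06 to 0.16).

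The other 2 Hsp90aa1 probe sets gave genotype differences of similar size. Probe set 10402615, numbered among the neighbours of Hsp90aa1 on its own chromosome, read 12.14 to 12.28 in the controls and 12.31 to 12.48 in the mutants, a log2 difference of 0.15 (95% interval 0.05 to 0.24). Probe set 10490946 read 11.89 to 12.01 in the controls and 12.02 to 12.14 in the mutants, a log2 difference of 0.15 (0.06 to 0.23). Mutants and controls did not overlap in any of the 3, and the limma adjusted p was 0.569 for each. The annotation lists the same transcripts for them, so they are not independent measurements.

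For each of the other members the 95% interval of the genotype difference took in 0. The genotype log2 difference was 0.15 (95% interval -0.10 to 0.40) for Hsph1, 0.10 (-0.03 to 0.23) for Hspd1 and 0.08 (-0.01 to 0.16) for Hspa8. For Hsp90b1 it was 0.04 (-0.11 to 0.18) and for Hspa5 0.02 (-0.23 to 0.26). The lower values were -0.05 (-0.40 to 0.30) for Hspa1a, -0.12 (-0.44 to 0.21) for Hspb1 and -0.004 (-0.18 to 0.18) for Dnajb1. The intervals are widest for Hspa1a and Hspb1, the genes whose arrays varied most. The sign turned when single arrays were left out for Hspa1a, Hspb1, Dnajb1 and Hspa5. A limma test of whether the genotype difference itself differed between titles 1 to 3 and titles 4 and 5 called 0 of the 9 members, against 0% of all genes, and 0 at an unadjusted p under 0.05, against 2.53%. The interaction was 0.10 for Hspa1a (95% interval -0.44 to 0.65) and 0.33 for Hspb1 (-0.35 to 1.01).

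Hspa8 had 3 probe sets of its own, and they disagreed about the arrays titled 1. Probe set 10528021, with the highest mean, read 13.27, 13.24, 13.19, 13.09 and 13.17 in controls 1 to 5 and 13.32, 13.29, 13.28, 13.24 and 13.20 in mutants 1 to 5. Probe set 10584572, the one numbered among the neighbours of Hspa8 on its own chromosome, read 13.10, 12.03, 12.02, 11.93 and 11.83 in controls 1 to 5 and 12.61, 12.00, 11.91, 12.04 and 11.89 in mutants 1 to 5. In it control 1 and mutant 1 stood apart, and the 8 arrays titled 2 to 5 lay between 11.83 and 12.04. Control 1 was 1.15 above the mean of the other controls, and 0.07 to 0.10 above it in the other 2 Hspa8 probe sets. Mutant 1 was 0.65 above the mean of the other mutants. Control 1, mutant 1 and control 5 are the 3 male embryos, and control 5 was the lowest array here. The part of embryo sex in these values was not tested. Of all 21789 probe sets read, 10584572 was the 1 in which both arrays titled 1 exceeded every other array by 0.5 or more. That criterion was set after the Hspa8 values were seen. The log2 difference of this probe set by title number was 0.35 (95% interval -0.08 to 0.78) with a limma adjusted p of 0.502, and by genotype -0.09 (-0.55 to 0.37). Probe sets 10584578 and 10584576 list Hspa8 together with Snord14c and Snord14d, which cannot be told apart in them. By title number they differed by 0.58 (95% interval 0.14 to 1.03) and 0.57 (0.13 to 1.01). The limma adjusted p was 0.439 and 0.446.

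**Figure D4:**
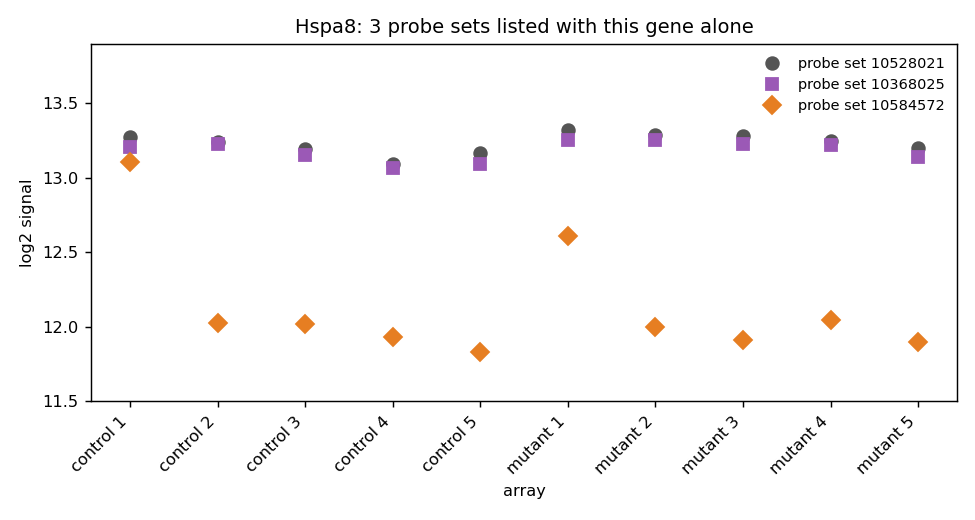
Log2 signal on the 10 arrays of the 3 probe sets listed with Hspa8 alone. In the probe set numbered among its chromosomal neighbours, control 1 (13.10) and mutant 1 (12.61) stand above the 11.83 to 12.04 of the other arrays, and the other 2 probe sets show no such gap.

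Several members were read from probe sets numbered away from the gene. This held for Hsp90aa1, Hspa8 and Hspd1, where the probe set with the highest mean is numbered among genes of another chromosome, so a near-identical copy could contribute to it. For Hspd1 the probe set numbered among its own neighbours gave a log2 difference of 0.08 (95% interval -0.07 to 0.23) by title number and 0.14 (-0.01 to 0.29) by genotype. The sign was kept in Hspd1 and Hsp90aa1 and turned in Hspa8 by genotype.

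Among the other chaperone genes, the co-chaperones of Hsp90 and the genes of the endoplasmic reticulum stood highest by title number, and no gene of any chaperone list passed in either comparison. Of 24 genes of the unfolded protein response and its chaperones, 19 were higher in titles 1 to 3, with a median log2 difference of 0.12, and 7 were higher and 1 lower at an unadjusted p under 0.05. They include Sdf2l1, a partner of Hspa5 (0.39 ± 0.09, SE, limma adjusted p = 0.115), and Xbp1, a transcription factor of that response (0.28 ± 0.08, SE, limma adjusted p = 0.197). Both were named for having the smallest p of their list, so their size reflects that choice. Of 13 measured Hsp90 family and co-chaperone genes, 12 were higher, with a median of 0.12. At an unadjusted p under 0.05 there were 4, among them the co-chaperones Ppid (0.17) and Chordc1 (0.16). For comparison with both lists, 60.8% of all genes were higher in titles 1 to 3, and 6.83% were so at an unadjusted p under 0.05. By genotype the medians of these lists were -0.02 and 0.03.

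The remaining lists lay near the median of all genes. Their counts of genes higher in titles 1 to 3 stand against 60.8% of all genes. The nucleotide exchange and adaptor proteins had a median log2 difference of 0.04 by title number, with 8 of 11 higher. Bag3, an HSF1-responsive partner of Hsp70, was at 0.24 ± 0.09 (SE, limma adjusted p = 0.322), and Bag6 at 0.11. The chaperonins had 0.04, with 7 of 9 higher, including Cct3 at 0.11 and Cct8 at 0.09, subunits of the cytosolic chaperonin. Hspe1, the neighbour of Hspd1 whose promoter stretch is shown above, was at 0.04 by title number and -0.14 by genotype (limma adjusted p = 0.614). The J-domain proteins had 0.03, with 12 of 17 higher, and Dnajb5 at -0.20 and Dnajc2 at 0.14. The other Hsp70 and Hsp110 genes had 0.01, with 5 of 9 higher. Hspa4l, an Hsp110, was at -0.37 ± 0.14 (SE, limma adjusted p = 0.322), and Hspa12b at 0.18. Without mutant 5, in which Hspa4l was high, the differences were -0.17 for Hspa4l, 0.10 for Hspa12b, -0.09 for Dnajb5 and 0.13 for Bag3. Cct3 was at 0.07 without mutant 3.

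The small heat shock proteins and the heat shock factors had medians below 0 by title number. Of 7 small heat shock proteins, 3 were higher and 4 lower in titles 1 to 3, with a median of -0.02 and a mean of 0.10. Hspb2 was at -0.24 and Cryab at -0.18, while Cryaa was at 1.02, with mutant 1 far above the other arrays. The value of Cryab ran from -0.33 without mutant 5 to -0.05 without mutant 4. By genotype 1 of the 7 was higher in the mutants, with a median of -0.09. Of the heat shock factor genes, 3 of 4 were measured and Hsf1 was not. Hsf2, a heat shock factor of embryonic tissue, was at -0.10 by title number and 0.23 ± 0.07 (SE) by genotype. Every mutant read above every control in Hsf2, as in 1.27% of all genes, and the limma adjusted p by genotype was 0.569. Without mutant 5 the title difference of Hsf2 was -0.03. Hsbp1, which binds heat shock factors, was at -0.10 by title number.

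**Figure D5:**
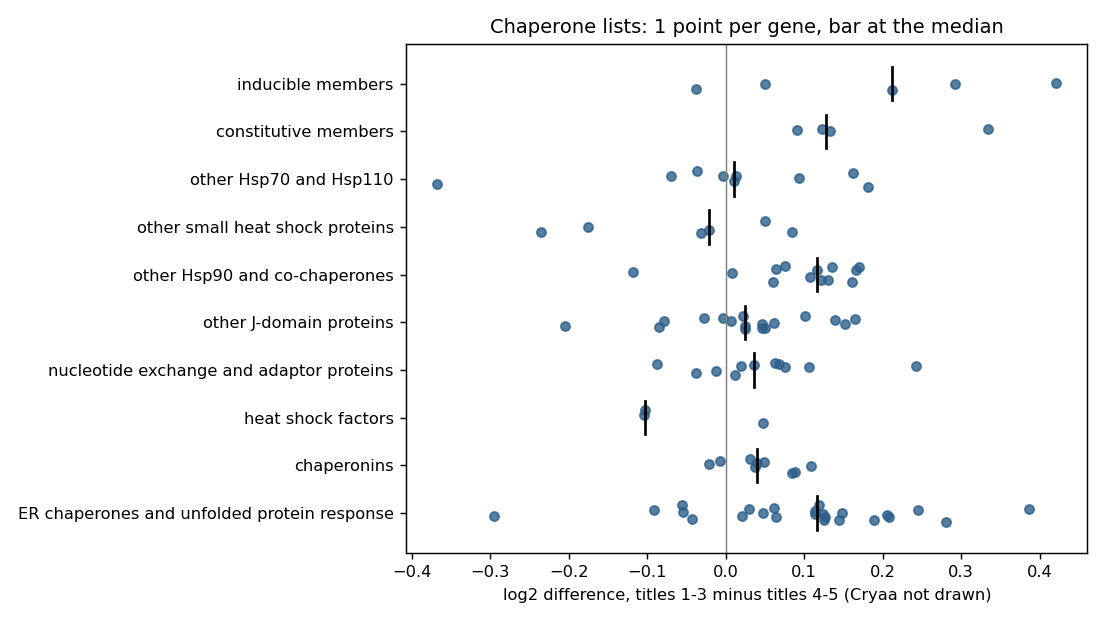
Log2 differences of single genes by title number (1 to 3 minus 4 and 5) in the members and in each chaperone list, with the list median marked. The medians of the endoplasmic reticulum and Hsp90 lists are 0.12 each, and that of the small heat shock proteins is -0.02.

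Other genes also differed between the title numbers. The boundary between the titles was drawn from the immediate early genes, so their values are a description of it and carry no test. All 12 were higher in titles 1 to 3, with a median log2 difference of 1.01. Fos differed by 3.35, Fosb by 3.01 and Egr1 by 2.48, where the largest member difference was 0.42. The mean of the centred immediate early genes was 0.41 to 0.73 in titles 1 to 3 and -0.93 to -0.84 in titles 4 and 5, whereas the inducible mean ran from -0.08 to 0.27 and from -0.21 to -0.05. Their part in the member differences was not tested.

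No gene of the cell type marker lists passed in either comparison, and none of those measured was at background. All 5 macrophage markers were higher in titles 1 to 3, against 60.8% of all genes. Of these markers, 3 had an unadjusted p under 0.05, against 6.83% of all genes in that direction. Their centred mean was -0.01 to 0.17 in titles 1 to 3 and -0.37 to 0.01 in titles 4 and 5. All 5 measured red blood cell markers were lower in titles 1 to 3, against 7823 of all 19938 genes. At an unadjusted p under 0.05 there were 3 of the 5, against 1025 of all 19938 genes in that direction. Their centred mean was -0.43 to 0.22 in titles 1 to 3 and -0.07 to 0.86 in titles 4 and 5. Neuron markers were higher in mutants for 6 of 6 genes, with a mean of -0.35 to 0.70 in mutants and -0.82 to 0.27 in controls. Myoblast markers were lower for 6 of 6, at -0.47 to 0.35 and -0.11 to 0.43. Higher in mutants were 1 of 7 periotic mesenchyme, 1 of 7 measured otic epithelium and 4 of 5 blood vessel markers, against 49.1% of all genes. Their median log2 differences by genotype were -0.13, -0.03 and 0.12. In titles 1 to 3, 6, 5 and 5 of these markers were higher. The part of these cell types in the member differences was not tested. In whole tissue, fewer cells of a type and less RNA per cell cannot be told apart.

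Mutant 1, the highest array for most members, also held a signal of lens genes. Cryaa, the small heat shock protein that makes up much of the lens, read 11.19 in mutant 1 and 5.54 to 5.97 on the other arrays. Of 18 crystallin genes, 4 exceeded every other array by 1 or more in mutant 1. The share of all genes that did so was not counted. The part of the lens signal in the member differences was not tested. Without mutant 1 the log2 difference by title number was 0.34 for Hspa1a, 0.25 for Hsph1, 0.18 for Dnajb1 and 0.31 for Hspa5.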

How the data were processed

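RNA of periotic tissue from 10 embryos was labelled from 300 ng of total RNA and measured on 1 array each. The deposited values are log2 signals. The submitters' processing notes name RMA and Affymetrix Expression Console 1.1 for them. RMA subtracts background, gives every array the same distribution and combines the probes of a probe set, so a shift shared by all genes is removed. That the scale is log2 follows from the values, with array medians of 6.19 to 6.27. No genome build for the probe sets is given here.

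Of 35557 probe sets the platform annotation gave 21789 a single symbol and 1621 several, and left out 12147. RefSeq names were found by gene id for 21698 of the 21789, and the annotation's name was kept for 91. The 21789 were fitted with limma 3.58.1 in R 4.3.3 (lmFit, eBayes with trend; two-sided). Benjamini-Hochberg adjustment covered all of them, at a threshold of 0.05. Mutants were compared with controls, titles 1 to 3 with 4 and 5 (genotype as a term), and the interaction was fitted. The shared probe sets, of Hspa1a with Hspa1b and of Hspa8 with Snord14c and Snord14d, were fitted over all 35557. Exact permutations were two-sided, within genotype for titles. The fits were tested on simulated data.

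The members, the chaperone lists and the title boundary were chosen with earlier results of these data known. Named besides the members were Tbx1, Fos, Fosb, Egr1 and, per chaperone list, genes past the threshold or otherwise the 2 of smallest p by title number. Hspe1 and Cryaa were added after their values were seen.

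As a check of pairing, deviations from genotype means were correlated between mutants and controls. Same-numbered arrays gave 0.110 to 0.236, over 0.1 in 5 of 5 pairs, which met the criterion for pairs. Other numbers gave -0.382 to 0.385, so the highest value came from arrays of different number. Same-numbered arrays also share a title group, so the check cannot tell pairs from title groups. The main fits and the permutations of arrays take no account of the pairs, unlike the replicate block. Alternatives were that block, other eBayes settings, median centring, a filter on low signals, all probe sets, other probe sets per gene, fits within titles or genotypes and leaving out each array. Permutation with the replicate number as the unit was added after the data were seen.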

Additional observations from a re-analysis of the deposited data

Results flagged for a closer look

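In 6 of 86 groups of 5 arrays, an array lay far from the others of its genotype by Dixon's criterion, where chance marks about 1 in 20. In the probe set shared by Hspa1a and Hspa1b, control 5 was low, at a log2 signal of 7.437. In the Hspa8 probe set numbered among the chromosomal neighbours of the gene, control 1 (13.1) and mutant 1 (12.61) were high. Cryaa was high in mutant 1 (11.19). Hsf2 (9.559) and Hspa4l (8.823) were high in mutant 5.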

How the results depend on the processing

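The number of arrays limits the precision, and 0 members passed by genotype under any alternative. By title number 0 passed except without control 3, where Hspa5 did, so that leaving out each array gave 0 to 1. Of the 7 members at an unadjusted p under 0.05 by title number, 4 were left with robust eBayes without trend, 4 with median centring, 4 within the mutants and 1 within the controls, and 4 to 7 when each array was left out. By genotype the 1 became 2 with the title number in the fit, and 1 to 3 when each array was left out. The genotype sign turned for Dnajb1 with median centring (0.013) and within titles 1 to 3 (0.029), for Hspb1 within titles 1 to 3 (0.015), for Hspa5 within titles 4 and 5 (-0.014) and for Hspa8 in its own-chromosome probe set (-0.091), chosen after seeing the data. Hspb1 by title number was 0.13 within the mutants. Leaving out each array gave genotype ranges of -0.18 to 0.051 for Hspa1a, -0.21 to 0.0060 for Hspb1, -0.059 to 0.047 for Dnajb1 and -0.041 to 0.11 for Hspa5, and -0.23 to 0.083 for Hspb1 by title number. The gap of the class means, 0.02 by title number and -0.03 by genotype, ran from -0.008 to 0.05 and from -0.06 to -0.003 when each array was left out. It was 0.076 and -0.082 with Hsp90aa1 among the constitutive genes, 0.081 and -0.059 without Hspa5 and Hsp90b1, and 0.074 and 0.0080 without Hspb1, the last chosen after seeing the data. Over all genes, the 38 called by title number became 14 over all probe sets, 22 without the genotype term, 18 within the mutants, 8 within the controls and, when each array was left out, 15 (without control 4) to 118 (without mutant 4), and the 2 by genotype became 0 with the filter and 1 within titles 4 and 5. In fits with the replicate block 0 members passed in either comparison, with 2 genes called by genotype and 36 by title number, and it changed no member's call. The cause of these shifts was not tested.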
